A study of Mus musculus with 6 samples.

Results

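Collagen genes were examined in cultured satellite cells, the stem cells of skeletal muscle. The cells came from mice with a conditional knockout (cKO) of Hira, the gene of the histone chaperone HIRA, and from controls. The members were taken by symbol: every protein-coding gene of the GENCODE M21 annotation whose symbol has the form of a collagen chain, such as Col1a1. This gave 44 of the 55536 genes in the deposited counts. RNA-seq had been performed on 3 control and 3 cKO samples, all of the C57BL/6J strain. Control samples were Pax7CreErt2;Hira fl/+ in the paper, where the sample labels give WT, and cKO samples were Pax7CreErt2;Hira fl/fl. In both groups the Cre recombinase is driven from Pax7, a gene of satellite cells, and is switched on by tamoxifen, which adult male mice of 8 to 12 weeks received in the diet for 2 weeks. The tibialis anterior muscle was injured with BaCl2 and satellite cells were sorted 5 days post-injury as CD34+ ITGA7+ cells, leaving out cells with CD45, TER119 or SCA1. They were cultured for 48 h on Matrigel, a basement membrane extract, in high serum before RNA was extracted. The samples are described as independent, and whether each came from its own mouse is not given, so that p-values measure only the spread between these samples.

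Collagens are secreted proteins in which 3 chains wind around each other. The helix needs a glycine at every first position of a repeat of 3 amino acids, and collagen types differ in what the helices assemble into. Fibrillar collagens form the cables of connective tissue, type IV forms the sheet of the basement membrane that encloses each muscle fibre and its satellite cells, type VI forms beaded filaments beside it, and FACIT collagens (fibril-associated collagens with interrupted triple helices) sit on the surface of fibrils. In muscle, most interstitial collagen is made by fibroblasts and fibro-adipogenic cells, while satellite cells and myoblasts also make collagen, with types V and VI known as parts of the satellite cell niche.

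The repeat can be read in the gene itself, since many exons of a fibrillar collagen encode whole repeats and are a multiple of 9 bases long. This held for 44 of the 51 coding exons of Col1a1, 46 of 52 in Col1a2, 50 of 66 in Col5a1 and 50 of 67 in Col5a3. In Col4a1 it held for 20 of 52 and in Col8a1 for 0 of 2. One exon of 54 bases is shown for each chain of 2 pairs that responded unequally within a collagen type, type I and type V, from the GENCODE M21 transcripts in mm10, with the glycine codon (GGN) that opens each repeat in capitals:
Col1a1, exon 8, chr11:94939904-94939957, plus strand: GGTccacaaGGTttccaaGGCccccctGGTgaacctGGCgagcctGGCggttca
Col1a2, exon 8, chr6:4515481-4515534, plus strand: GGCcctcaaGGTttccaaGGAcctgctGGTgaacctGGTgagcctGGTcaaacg
Col5a1, exon 15, chr2:27965251-27965304, plus strand: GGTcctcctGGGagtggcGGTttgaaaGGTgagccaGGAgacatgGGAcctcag
Col5a3, exon 15, chr9:20801068-20801121, minus strand: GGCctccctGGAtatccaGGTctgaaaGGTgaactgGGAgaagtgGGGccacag
Each of these exons opens with a glycine codon and holds 6 repeats. A glycine codon at another position of a repeat, as in Col1a1 and Col5a1, is in lower case. They are also shorter than the 75 bases of a read, which bears on how the counts were made: the reads were aligned with Bowtie2, which does not split a read over an intron. Of the 75-base windows of a transcript, a median of 51.3% lay within 1 exon over the 44 collagen genes, from 26.7% in Col16a1 to 95.6% in Col8a1. The median over the protein-coding genes tested was 79.7%. Collagen transcripts had a median of 48 exons and those of the genes tested had 9. An aligner of this kind can leave out reads that cross a junction, and how many were left out was not measured.

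The total count of a sample lay between 47944477 and 63323577. Hira, the targeted gene, had control counts of 375, 348 and 341 and cKO counts of 161, 293 and 272, a log2 fold change of -0.43 with a standard error (SE) of 0.12 (adjusted p = 0.0237). Its groups did not overlap in CPM, and the test was not passed when control replicate 1 was left out (adjusted p = 0.104). By RT-qPCR the paper reports a larger decrease of Hira in satellite cells, and HIRA protein was not detected there. Differences were tested on the counts of 22404 genes with edgeR's quasi-likelihood test, and a gene is said to have risen or fallen in cKO where its Benjamini-Hochberg adjusted p was under 0.05. The median log2 fold change of all genes tested was -0.00111. Levels are given as CPM, counts per 1000000 counts of the sample.

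Collagen genes were higher in cKO far more often than lower. Of the 38 collagen genes with enough counts to be tested, 21 rose, 3 fell and 14 passed the test in neither direction. This is 55.3% rising, where 9.38% of all genes tested rose, and 7.89% falling, where 6.46% of all genes tested fell. The median log2 fold change of the 38 was 0.22. Well-counted genes are called more often, so the same was counted among genes with a mean of at least 200 counts: 19 of 25 collagen genes rose and 3 fell, beside backgrounds of 10.8% and 9.99%. In CPM, all 3 cKO samples lay above all 3 control samples for 25 collagen genes and below them for 3, where this held for 20.3% and 11.1% of all genes tested. The 24 genes that passed the test were all among these 28. Col1a1, Col16a1 and Col28a1 rose by at least 1 on the log2 scale, and the genes that fell were Col5a3, Col8a2 and Col25a1.

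**Figure D1:**
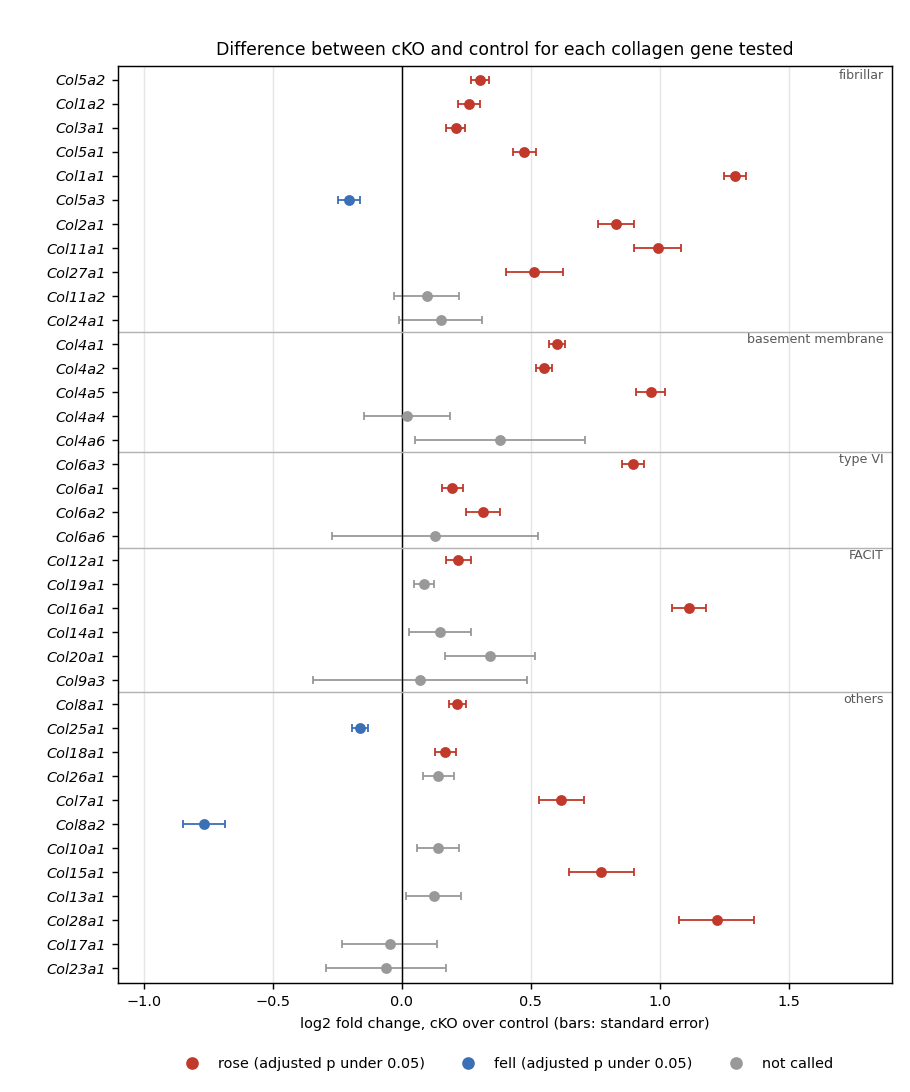
Log2 fold change of cKO over control (x axis) with its standard error for the 38 collagen genes tested, grouped by class and ordered by mean CPM within a class. Red points rose, blue points fell and grey points passed the test in neither direction; 21 points are red, 3 are blue, and Col1a1 at 1.29 lies farthest to the right.

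Type I collagen, the main tensile collagen of connective tissue, is built from the products of Col1a1 and Col1a2. Col1a1 (ENSMUSG00000001506, chromosome 11, 94936224 to 94953042) had 6712, 7640 and 7318 counts in control against 13440, 19214 and 16074 in cKO (in the order of replicates 1, 2 and 3, here and for the other genes), which is 119, 121 and 119 CPM against 280.3, 325 and 288 CPM. The groups lay far apart and the control samples were nearly equal. Its log2 fold change was 1.29 (SE 0.04, adjusted p = 1.37e-10), which ranked it 2 of the 22404 genes tested by p. Col1a2 (ENSMUSG00000029661, chromosome 6, 4504814 to 4541544) had 552, 607 and 598 CPM in control against 704, 762 and 676 in cKO. It rose too, by a smaller step of 0.26 (SE 0.04, adjusted p = 4.88e-04). Col3a1 (ENSMUSG00000026043, chromosome 1, 45311538 to 45349706), the single chain of type III collagen, which mixes with type I in soft tissue, had 379, 405 and 395 CPM in control against 445, 488 and 452 in cKO, and rose by 0.21 (SE 0.04, adjusted p = 8.99e-04).

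Type V collagen lies in the core of type I fibrils and limits their width, and its 3 genes did not move alike. Col5a2 (ENSMUSG00000026042, chromosome 1, 45374321 to 45503282) had the highest CPM of all collagen genes, with 810.2, 825 and 836 in control against 997, 1098 and 1008 in cKO, and rose by 0.30 (SE 0.03, adjusted p = 1.90e-05). Col5a1 (ENSMUSG00000026837, chromosome 2, 27886425 to 28039514) had 221, 243 and 236 CPM in control and 314, 355 and 319.9 in cKO, a rise of 0.48 (SE 0.04, adjusted p = 1.94e-06). Both were above the control range in every cKO sample. In the paper, Col5a1 is named as a satellite cell marker that was lower in Hira-knockout C2C12 myoblasts. Those are a cell line, while the rise here was measured in RNA from whole cultures of sorted satellite cells. Col5a3 (ENSMUSG00000004098, chromosome 9, 20770050 to 20815067) had 38.6, 39.0 and 37.2 CPM in control and 33.5, 35.9 and 31.8 in cKO. It was below the control range in every cKO sample and fell by 0.21 on the log2 scale (SE 0.04, adjusted p = 0.00442).

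The remaining fibrillar genes were lower in CPM than those of types I, III and V. Of those known from cartilage fibrils, Col2a1 and Col11a1 rose and Col11a2 did not pass. Col2a1, the chain of type II collagen, had 6.81, 7.14 and 7.22 CPM in control and 13.5, 11.8 and 13.1 in cKO, a log2 fold change of 0.83 (SE 0.07, adjusted p = 5.52e-07). Col11a1, a chain of type XI collagen, had 2.78, 3.06 and 2.82 CPM in control and 5.42, 6.37 and 5.70 in cKO, a log2 fold change of 0.99 (SE 0.09, adjusted p = 1.65e-06). In both genes every cKO sample lay clear of the control samples. Col27a1, a fibrillar collagen of developing cartilage, had 2.48, 2.13 and 2.13 CPM in control and 2.90, 3.52 and 3.31 in cKO, a rise of 0.51 (SE 0.11, adjusted p = 0.00483). Col11a2, another chain of type XI collagen, at 2.07 to 2.51 CPM in control and 2.34 to 2.90 in cKO, and Col24a1, at 1.52 to 2.02 and 1.52 to 2.42, overlapped between the groups and had adjusted p of 0.696 and 0.621. Of a list of 7 chondrocyte markers other than collagens, 4 were tested, and 0 rose and 0 fell. The list summed to 20.5 to 23.8 CPM in control and 17.02 to 22.9 CPM in cKO, most of it Sox9, at 19.1 CPM in control. Acan, Comp and Matn3 had low counts and log2 fold changes of -0.16 (SE 0.14), 0.56 (SE 0.23) and 0.26 (SE 0.22), so the test could miss a difference in them.

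Chains of 1 collagen type can be set against each other within a sample, as counts per base of annotated exon. Col1a1 over Col1a2 was 0.407, 0.377 and 0.377 in the control samples and 0.754, 0.807 and 0.806 in the cKO samples, so the mean went from 0.387 ± 0.0174 to 0.789 ± 0.0304 (SD, n = 3), 2.04-fold. The fold does not depend on the length used, but the ratio itself does: per base of 1 transcript it was 0.184 and 0.376, and per 75-base window within 1 exon it was 0.576 and 1.17. In type IV, the pair Col4a1 and Col4a2 kept its ratio within the spread of the samples, with 1.78 to 1.87 in control and 1.85 to 1.96 in cKO. The ratio of Col5a3 to Col5a1 went from 0.205 ± 0.0113 to 0.128 ± 0.00453, or 0.623-fold, with no overlap between the groups. Col5a1 over Col5a2 went from 0.320 ± 0.0125 to 0.360 ± 0.00501 and Col6a1 over Col6a2 from 5.77 ± 0.320 to 5.28 ± 0.120, both without overlap but by 1.13-fold and 0.915-fold. A further pair of ratios was chosen after their values were seen. Col6a3 over Col6a1 went from 1.49 ± 0.0688 to 2.42 ± 0.210, and Col8a2 over Col8a1 from 0.0418 ± 0.00195 to 0.0212 ± 0.00175. The ratios are descriptions with no test of their own, since with 3 samples against 3 an exact permutation test cannot go below 0.1.

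**Figure D2:**
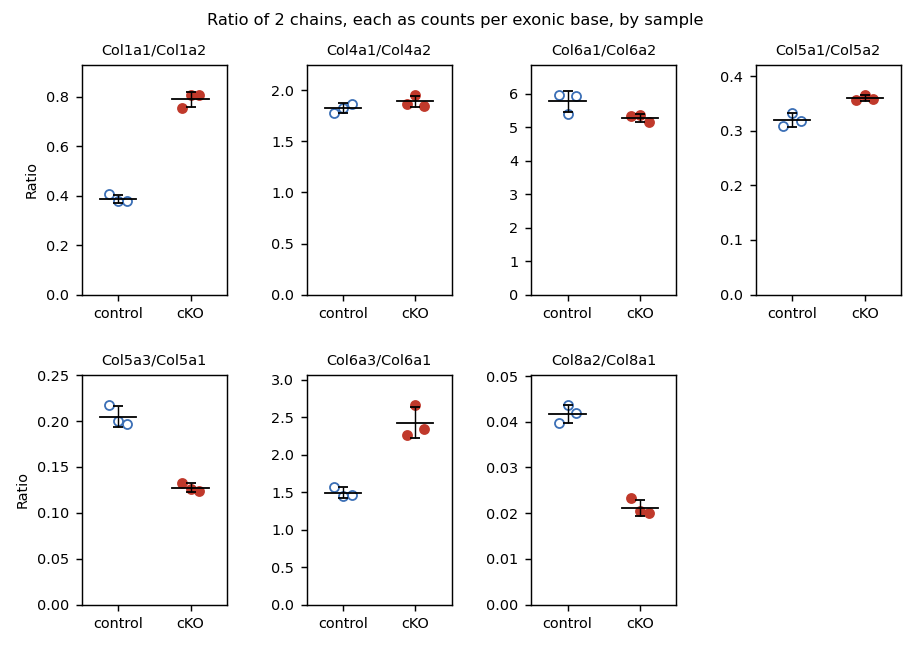
Ratio of the first to the second gene of 7 pairs, each as counts per exonic base (y axis, linear from 0), with 1 point per sample, lines at the mean and bars of 1 SD; open blue points are control and filled red points are cKO. The groups lie apart in 6 pairs and overlap in Col4a1/Col4a2.

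Basement membrane collagen was higher in cKO. Col4a1 (ENSMUSG00000031502, chromosome 8, 11198423 to 11312826) and Col4a2 (ENSMUSG00000031503, chromosome 8, 11312805 to 11449287) make the type IV collagen found in nearly every basement membrane. They are transcribed away from each other and their annotated ends overlap by 22 bases. Col4a1 had 342, 345 and 337 CPM in control against 521, 548 and 512 in cKO, a log2 fold change of 0.60 (SE 0.03, adjusted p = 4.23e-09). Col4a2 had 171, 167 and 159.9 CPM in control against 247, 249 and 246 in cKO, a log2 fold change of 0.55 (SE 0.03, adjusted p = 1.22e-08). The 2 genes rose by nearly the same step, and no sample of either overlapped with the other group. Col4a5 (ENSMUSG00000031274, chromosome X, 141475385 to 141689234), a chain of the specialised networks of kidney, lung and smooth muscle, had 9.78, 9.98 and 9.14 CPM in control and 18.5, 20.3 and 18.6 in cKO, and rose by 0.96 (SE 0.06, adjusted p = 1.71e-08).

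The partners of Col4a5 in those networks were near the limit of detection. Col4a6, its divergent neighbour 1308 bases away, had control counts of 20 to 23 and cKO counts of 10, 38 and 29, with a log2 fold change of 0.38 that did not pass (SE 0.33, adjusted p = 0.52). Col4a4 had control counts of 51 to 69 and cKO counts of 46 to 62, with a log2 fold change of 0.02 (SE 0.17, adjusted p = 0.961). Col4a3, 71 bases from Col4a4 and divergent from it, had control counts of 6 to 16 and cKO counts of 7 to 11 and was not tested. Of the 75-base windows of Col4a3 that lie within 1 exon, 8.15% are shared with another annotated gene, so part of these counts may belong to that gene.

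Type VI collagen, whose loss causes the Bethlem and Ullrich muscle diseases, is built from the products of Col6a1, Col6a2 and Col6a3 in most tissues, and all 3 genes rose. Col6a3 (ENSMUSG00000048126, chromosome 1, 90765923 to 90843971) had 172, 174 and 167 CPM in control against 309, 352 and 309 in cKO, a log2 fold change of 0.90 (SE 0.04, adjusted p = 1.98e-09). Col6a1 (ENSMUSG00000001119, chromosome 10, 76708792 to 76726168) had 40.0, 44.1 and 41.9 CPM in control and 49.97, 48.5 and 48.3 in cKO, a log2 fold change of 0.19 (SE 0.04, adjusted p = 0.00385). Col6a2 (ENSMUSG00000020241, chromosome 10, 76595762 to 76623630), which lies 85161 bases from Col6a1 on the same strand, had 12.8, 15.5 and 13.4 CPM in control and 17.9, 17.1 and 17.8 in cKO, a log2 fold change of 0.32 (SE 0.07, adjusted p = 0.00364). The step of Col6a3 was the larger one, and in none of the 3 genes did the groups overlap. The alternative chains were at or near 0: Col6a6 had 6 to 18 counts per sample and a log2 fold change of 0.13 (adjusted p = 0.886), Col6a5 had 1 to 7 counts and Col6a4 had 0 to 7, and the last pair was not tested. Col6a5 and Col6a6 share 4.05% and 4.18% of their windows with each other.

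Among the FACIT collagens, Col12a1 and Col16a1 rose. Col12a1 (ENSMUSG00000032332, chromosome 9, 79598991 to 79718831), which binds type I fibrils in tendon and the connective tissue of muscle, had 282, 294 and 286 CPM in control and 310.5, 373 and 337 in cKO, a rise of 0.22 (SE 0.05, adjusted p = 0.00494). Col16a1 (ENSMUSG00000040690, chromosome 4, 130047840 to 130099283) had 6.05, 5.40 and 6.06 CPM in control and 13.2, 12.9 and 12.4 in cKO, a rise of 1.11 (SE 0.07, adjusted p = 1.76e-08). Neither gene overlapped between the groups, and the gap was narrow in Col12a1 and wide in Col16a1. Col19a1, a basement membrane zone collagen known from differentiating muscle cells, was the second of the class in CPM with 50.8 to 55.5 in control and 55.8 to 58.1 in cKO, and its difference of 0.09 did not pass (SE 0.04, adjusted p = 0.162). Col20a1, at 44 to 50 counts in control against 49 to 61 in cKO, had a log2 fold change of 0.34 (SE 0.17, adjusted p = 0.221). Col14a1, a fibril-associated collagen of mature fibroblasts, had 2.01 to 2.38 CPM in control and 2.26 to 2.77 in cKO, with a log2 fold change of 0.15 (SE 0.12, adjusted p = 0.494). Col9a3 had 6 to 18 counts per sample (adjusted p = 0.944), and 13.04% of its windows are shared with Tcfl5, which runs on the other strand. Col9a1 had 2 to 4 counts, Col9a2 had 1 to 7 and Col22a1, a collagen of the junction of muscle and tendon, had 2 to 9, and none of them was tested.

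The other 12 members include network, transmembrane and anchoring collagens, of which 5 rose and 2 fell, where 9.38% and 6.46% of all genes tested did. Col8a1 (ENSMUSG00000068196, chromosome 16, 57624258 to 57754737) and Col8a2 (ENSMUSG00000056174, chromosome 4, 126286793 to 126314330) encode the short chains of type VIII collagen, a network of vessel walls and the cornea, and went opposite ways. Col8a1 had 269, 272 and 272 CPM in control against 309, 338 and 312 in cKO, and rose by 0.21 (SE 0.03, adjusted p = 3.98e-04). Col8a2 had 6.14, 6.81 and 6.52 CPM in control and 4.11, 3.96 and 3.58 in cKO, and fell by 0.77 on the log2 scale (SE 0.08, adjusted p = 8.91e-06). Its groups were well apart, and it had the deepest fall among the collagen genes. Col25a1 (ENSMUSG00000058897, chromosome 3, 130131501 to 130599877), a transmembrane collagen by which developing muscle attracts motor axons, had 108, 108 and 109.7 CPM in control and 99.6, 96.8 and 99.8 in cKO, and fell by 0.16 on the log2 scale (SE 0.03, adjusted p = 0.00207).

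Col18a1 and Col15a1, both proteoglycan collagens of basement membranes, rose. Col18a1 (ENSMUSG00000001435) had 77.2, 77.4 and 74.6 CPM in control and 84.5, 93.8 and 83.6 in cKO, a rise of 0.17 (SE 0.04, adjusted p = 0.00931). Without control replicate 3 the rise of Col18a1 was 0.15 and did not pass (adjusted p = 0.0637). Col15a1 (ENSMUSG00000028339) had 2.79, 2.56 and 2.44 CPM in control and 3.92, 5.51 and 4.03 in cKO, with cKO replicate 2 above the other samples, and a log2 fold change of 0.77 (SE 0.13, adjusted p = 4.96e-04). Col7a1, which forms the anchoring fibrils of skin, had 5.73, 5.95 and 5.44 CPM in control and 7.97, 10.2 and 8.44 in cKO, a log2 fold change of 0.62 (SE 0.09, adjusted p = 1.50e-04). Col28a1, known from peripheral nerve, had control counts of 66, 57 and 67 and cKO counts of 102, 156 and 149, a log2 fold change of 1.22 (SE 0.15, adjusted p = 2.78e-05). The last 3 of these genes had low levels, with Col28a1 at 1.05 ± 0.138 CPM in control against 2.48 ± 0.304 in cKO (SD, n = 3).

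The other 5 of this class passed in neither direction. Col26a1, at 13.8 to 14.5 CPM in control and 14.9 to 17.4 in cKO, was nearest to passing among all 14 such collagen genes, with a log2 fold change of 0.14 (SE 0.06, adjusted p = 0.138). Col10a1, the collagen of hypertrophic cartilage, had 4.14 to 4.35 CPM in control and 4.50 to 5.07 in cKO, with a log2 fold change of 0.14 (adjusted p = 0.3). In Col26a1, Col10a1, Col19a1 and Col20a1 the groups did not overlap in CPM, although the test was not passed. CPM use the total counts, and the test used another scaling (TMM). Col13a1, a transmembrane collagen of the neuromuscular junction, had a log2 fold change of 0.12 (SE 0.11, adjusted p = 0.522). Col17a1, a part of the hemidesmosome, had 0.796 to 1.14 CPM in control and 0.931 to 1.13 in cKO, and Col23a1 had 0.477 to 0.619 and 0.417 to 0.609, and both had an adjusted p of 0.909. Over the 14 genes, the log2 fold change was above 0 in 12 and below 0 in 2, Col17a1 and Col23a1. The 6 genes left out by the filter, Col4a3, Col6a4, Col6a5, Col9a1, Col9a2 and Col22a1, had at most 16 counts in a sample, and a difference in them was not detectable at this depth.

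Compared per length, the collagen genes covered a wide range. Per kilobase of annotated exon, Col5a2 stood first in control with 85.9 CPM per kilobase, followed by Col1a2 at 47.1, Col4a1 at 45.8, Col3a1 at 40.0, Col8a1 at 34.6, Col5a1 at 27.5, Col4a2 at 25.1, Col12a1 at 18.9, Col1a1 at 18.2 and Col6a3 at 14.3. With standard deviations of 2.36 for Col1a2 and 0.546 for Col4a1, these 2 neighbours did not differ beyond their spread on this length. That comparison depended on the length used. Per kilobase of 1 transcript, Col1a2 stood at 109.5 and Col4a1 at 51.6 CPM in control. Per 75-base window within 1 exon the order was reversed, with Col4a1 above Col1a2. In cKO, Col1a1 stood at 45.4 and Col6a3 at 27.1 CPM per kilobase of annotated exon. The same 10 genes were highest when the length of 1 transcript or the number of 75-base windows within 1 exon was used instead, although per transcript Col4a1 came after Col3a1 and Col8a1. These 10 genes held 89.3% of the collagen counts in control and 91.0% in cKO.

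**Figure D3:**
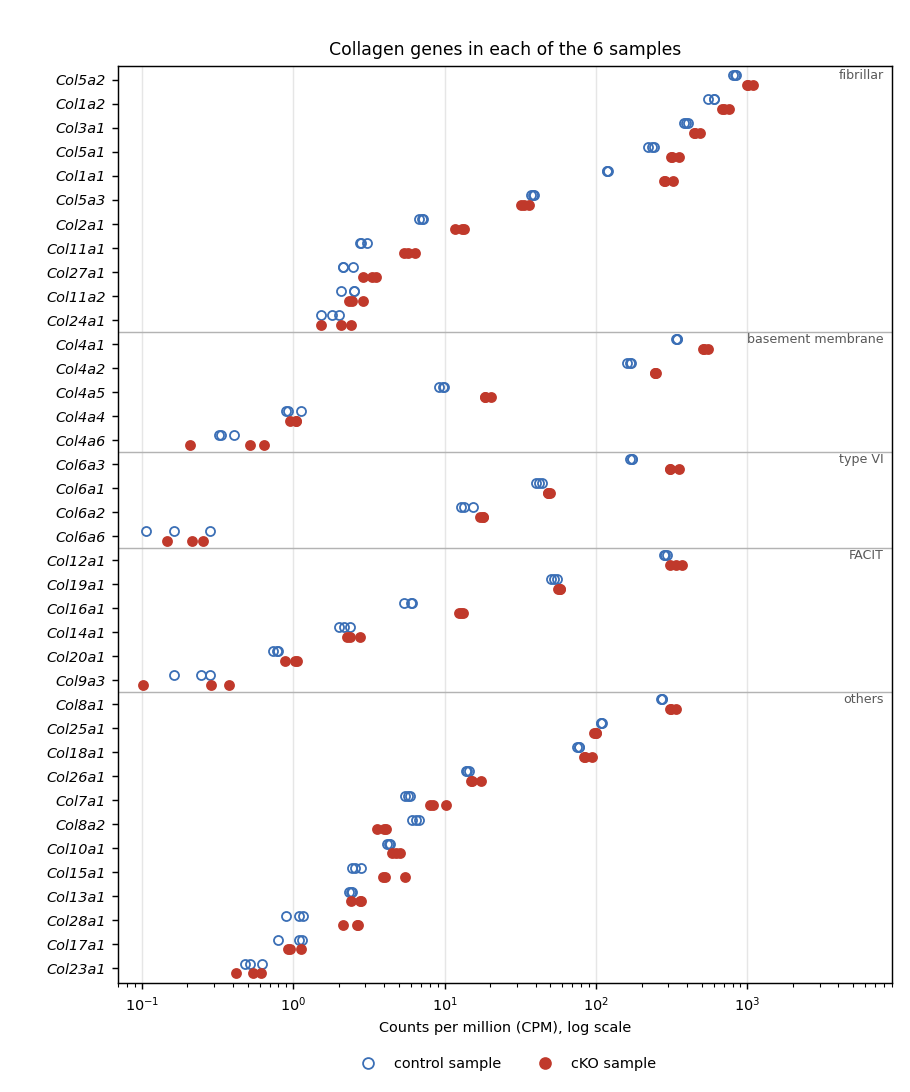
CPM in each sample (x axis, log scale) for the 38 collagen genes tested, grouped by class and ordered by mean level; open blue points are the 3 control samples and filled red points the 3 cKO samples. Col5a2 is highest, at 810.2 to 1098 CPM, and the groups of Col1a1 lie apart at 119 to 121 and 280.3 to 325 CPM.

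Summed over all 44 genes, collagen counts made up 3724, 3864 and 3809 CPM in control against 4885, 5353 and 4904 in cKO. The mean went from 3799 ± 70.7 to 5047 ± 265 CPM (SD, n = 3), 1.33-fold, or from 0.380% to 0.505% of all counts. The groups did not overlap, and cKO replicate 2 was the highest sample. The gain was spread over several genes: Col5a2 made up 16.9% of the net rise in CPM, Col4a1 14.9%, Col1a1 14.3%, Col6a3 12.2% and Col1a2 10.3%. By class, the sum went from 227 ± 5.75 to 390.5 ± 24.1 CPM for type VI, 1.72-fold, and from 519 ± 9.28 to 795 ± 21.3 CPM for the basement membrane genes, 1.53-fold. Fibrillar genes went from 2210 ± 64.3 to 2898 ± 167 CPM, 1.31-fold, and held 58.2% of the collagen counts in control and 57.4% in cKO. FACIT genes went from 349.6 ± 4.88 to 414 ± 31.1 CPM and the others from 494 ± 2.10 to 550.2 ± 24.3 CPM, 1.18-fold and 1.11-fold. These sums are CPM and weight long and well-mapped genes more. By count, beside the 9.38% and 6.46% of all genes tested that rose and fell, 8 of 11 fibrillar genes tested rose and 1 fell, 3 of 5 basement membrane genes, 3 of 4 type VI genes and 2 of 6 FACIT genes rose and 0 fell, with median log2 fold changes of 0.30, 0.55, 0.25 and 0.18. The median of the 12 others was 0.14.

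**Figure D4:**
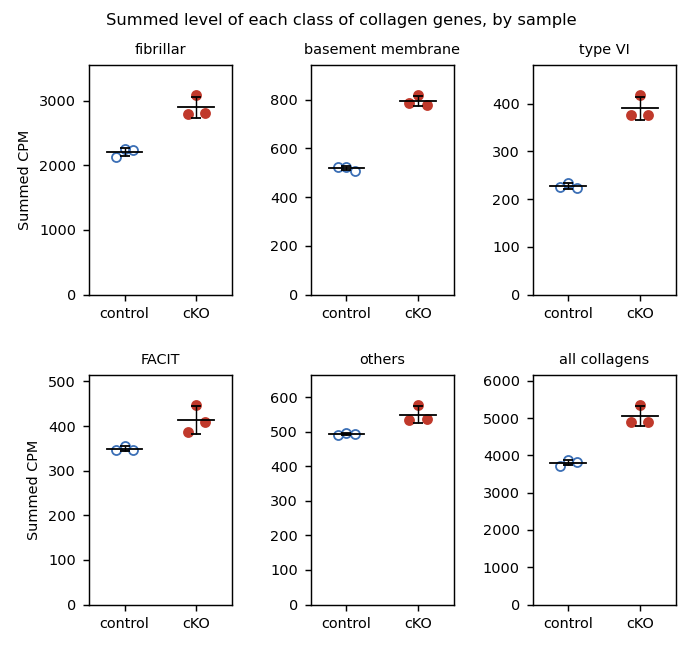
Summed CPM of the genes of each collagen class and of all 44 collagen genes (y axes, linear from 0), with 1 point per sample, lines at the mean and bars of 1 SD; open blue points are control and filled red points are cKO. In every panel the 3 cKO points lie above the 3 control points, and cKO replicate 2 is the highest.

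Genes that make and process collagen were counted in a list of 35, covering hydroxylases, chaperones, export factors, the proteases that trim the procollagen ends, and the lysyl oxidases that cross-link fibrils. Of the 33 tested, 19 rose and 2 fell, beside 9.38% and 6.46% of all genes tested, and the median log2 fold change was 0.15. The 5 lysyl oxidases all rose. Lox went from 407 ± 4.32 to 664 ± 51.6 CPM in cKO (SD, n = 3), a log2 fold change of 0.68 (adjusted p = 3.38e-08), with 1.09 for Loxl2, 0.86 for Loxl3, 0.72 for Loxl4 and 0.16 for Loxl1. Of the proteases, Tll1, a relative of the procollagen C-proteinase, went from 12.1 ± 0.230 to 28.3 ± 4.12 CPM (log2 fold change 1.21, adjusted p = 4.56e-08), and Bmp1, the C-proteinase itself, and Adamts2, the N-proteinase of types I and III, rose by 0.23 and 0.31. Pcolce, which speeds up the C-proteinase, rose by 0.33. Serpinh1, the collagen chaperone HSP47, went from 1037 ± 19.6 to 1231 ± 14.4 CPM (log2 fold change 0.22, adjusted p = 7.61e-05). Among the genes of the hydroxylases, Plod3 rose by 0.33, P3h3 by 0.29, P4ha2 by 0.25, P3h1 by 0.21, Plod1 by 0.16 and P4hb by 0.13. The other hydroxylase genes did not pass: P4ha1 and Plod2, at 188 and 192 CPM in control, had log2 fold changes of 0.01 and 0.03, P4ha3 had 0.15 (adjusted p = 0.172) and P3h2 had -0.02 (adjusted p = 0.964). Creb3l1, a transcription factor that acts on type I collagen genes in bone, fell by 0.30 on the log2 scale (adjusted p = 0.00115), and Tmem38b, an ion channel of the endoplasmic reticulum, fell by 0.28 (adjusted p = 5.62e-04). The calls of P3h4 and Plod1 were each lost without some of the samples, P3h4 without any 1 of the control samples or of cKO replicates 1 and 3, and Plod1 without control replicate 1 or 2 or cKO replicate 2.

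Receptors of collagen were counted in a list of 10. Of the 9 tested, 4 rose and 0 fell, beside the same 9.38% and 6.46% of all genes tested, with a median log2 fold change of 0.09. Of the 4 integrin chains that bind collagen, Itga1 and Itga11 rose, by 0.88 (from 8.82 ± 0.398 to 16.4 ± 2.08 CPM, adjusted p = 1.20e-06) and 0.63 (from 2.69 ± 0.280 to 4.25 ± 0.310 CPM, adjusted p = 4.52e-04). The other integrin chains, Itga2 and Itga10, had log2 fold changes of 0.01 (adjusted p = 0.989) and 0.01 (adjusted p = 0.967). Lair1, an inhibitory collagen receptor of immune cells, rose by 1.13 at a level of 0.8035 ± 0.0862 CPM in control. Mrc2, an endocytic receptor that takes up collagen, rose by 0.17, a call that was lost without control replicate 2 or 3. The common partner Itgb1, at 1778 ± 16.9 CPM in control, differed by 0.03 on the log2 scale (adjusted p = 0.502). For the receptor kinases, Ddr2 had 0.09 (adjusted p = 0.0547) and Ddr1 had -0.09 (adjusted p = 0.0914), and neither passed. Ddr1 passed the test as lower in cKO when cKO replicate 1 or the filter on low counts was left out, and Ddr2 passed as higher with total counts alone or with a filter of 1 CPM in 3 samples.

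**Figure D5:**
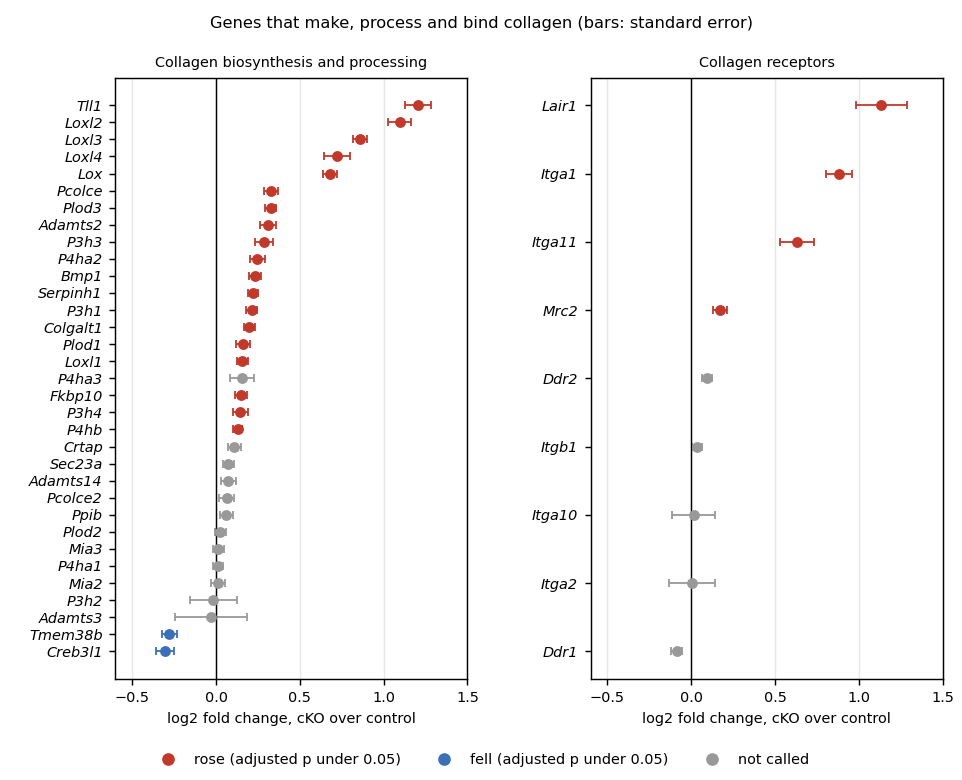
Log2 fold change of cKO over control (x axes) with its standard error for 33 genes of collagen biosynthesis and processing (left) and 9 collagen receptor genes (right). Red points rose, blue points fell and grey points passed the test in neither direction; Tll1 and the lysyl oxidases lie highest on the left, from 1.21 to 0.68 apart from Loxl1 at 0.16.

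Other cell types were checked with marker lists that leave out collagens, because in RNA from a whole culture more cells of a type and more RNA per cell cannot be told apart. The counts of markers that rose or fell can be read beside the 9.38% and 6.46% of all genes tested. Fibroblast markers were higher in cKO: their summed level was 51.3, 50.6 and 50.0 CPM in control and 108, 121 and 106.6 CPM in cKO, and of 10 tested of 14, 6 rose and 0 fell, with a median log2 fold change of 1.12. Pdgfra, the best expressed of them, went from 22.9 ± 1.31 to 51.4 ± 4.29 CPM. Mfap5, Osr1, Cd248, Twist2 and Dcn rose by 1.37, 1.21, 1.18, 1.18 and 1.10, from control means of 3.43, 3.68, 14.9, 0.286 and 0.953 CPM. Ly6a, Dpt, Fap and Pi16 were tested and did not pass, with log2 fold changes of 0.24, 0.42, 0.40 and 0.70. Ly6a, the gene of the SCA1 that the sort left out, had 3.04 CPM in control and 3.66 in cKO. The genes of the list that were not tested were at or near 0 in both groups. Their mean levels in control and cKO were 0 and 0.00564 CPM for Tcf21 and 0.0172 and 0.140 CPM for Lum. For Clec3b they were 0.00543 and 0.0268 CPM, and for Dpp4 0.0389 and 0.0865 CPM. Markers of macrophages, which carry the CD45 that the sort left out, summed to 142, 138 and 138 CPM in control and 302, 340.4 and 290.3 CPM in cKO, and 12 of 12 rose, with a median of 1.06. Endothelial markers summed to 20.7 to 22.0 CPM in control and 30.5 to 36.3 in cKO, with 4 of 10 that rose and 0 that fell. Pericyte and smooth muscle markers summed to 3251 to 3310 CPM in control against 3530 to 3669 in cKO, with 5 that rose and 2 that fell of 7 tested. Acta2 made up most of this sum, at 2929 CPM in control and 3180 in cKO, and rose by 0.09 on the log2 scale. Myh11, Rgs5, Pdgfrb and Cspg4 rose by 0.98, 0.64, 0.57 and 0.15, and Notch3 and Abcc9 fell by 0.28 and 0.20. In the paper, Pdgfra and the endothelial marker Cdh5 were also higher in Hira-knockout C2C12 myoblasts, a cell line. It also reports staining for VE-cadherin, the protein of Cdh5, in satellite cells lacking Hira. A marker that rose is therefore not by itself a count of other cells. The part of other cells in the rise of the collagen genes was not tested.

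Of the markers of the labelled cell type, Pax7, which defines satellite cells, had 39.3 ± 0.748 CPM in control, and Calcr and Chodl, markers of resting satellite cells, were near 0 at 0.1002 and 0.131 CPM. Des and Myog, genes of muscle cells that differentiate, had 3199 ± 27.7 and 2112 ± 15.8 CPM. Satellite cell and myogenic markers summed to 7437 to 7577 CPM in control against 6648 to 7088 in cKO, and of 10 tested of 12, 8 fell and 0 rose, with a median log2 fold change of -0.16. Tenocyte markers summed to 104 to 105 CPM in control and 92.6 to 100.4 in cKO, with 1 that rose and 1 that fell of 5 tested. For glial markers the sums were 236 to 245 and 220.4 to 228 CPM, with 1 that rose and 1 that fell of 6 tested. Sample cKO replicate 2, highest in summed collagen, was also highest in the fibroblast, macrophage and endothelial sums. It was lowest in the sum of satellite cell and myogenic markers, which is mostly Des and Myog, at 2754 and 1831 CPM in that sample. The genes of this list did not all go with its sum. Among the cKO samples, replicate 2 was highest for Pax7, Myod1, Megf10 and Fgfr4, at 37.4, 732, 351 and 48.9 CPM. For Itga7 and Myf5 it was the lowest, at 550.2 and 53.2 CPM. Without cKO replicate 2 the difference in summed collagen was 1095 CPM in place of 1248 CPM, and the same 21 collagen genes rose and 3 fell.

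Genomic neighbours within the family gave mixed pairs. Col3a1 and Col5a2, which lie tail to tail on chromosome 1 with 24614 bases between them, rose by 0.21 and 0.30. Col4a5 passed the test while its head-to-head neighbour Col4a6 did not, and Col19a1, whose neighbour Col9a1 lies 9205 bases away, was well expressed while Col9a1 had at most 4 counts. Among the 10 members highest in CPM, exact sequence shared with other genes was found in Col3a1 and Col5a1: of the 75-base windows within 1 exon, 2.78% of Col3a1 are shared with the overlapping gene Gm47302, and 1.54% of Col5a1 with other annotated genes.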

How the data were processed

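The authors aligned single-end reads of 75 bp from rRNA-depleted libraries (400 ng of total RNA, a stranded kit) to mm10 with Bowtie2 2.3.4.2 and deposited raw counts per gene from featureCounts 1.6.3. The strand setting, the annotation and the handling of reads that match several genes are not given in the sources used here. The authors also deposited a normalized signal, which was checked to equal the counts divided by a size factor per sample and was not used further. Their deposited comparison (a mean, a log2 fold change with its standard error, a Wald score, a p-value and an adjusted p-value from DESeq2 2.11.40.6) was not used.

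All 6 samples were grouped by the genotype label. Counts were filtered with filterByExpr, scaled by TMM and tested with edgeR 4.0.16 (quasi-likelihood test) in R 4.3.3 with genotype alone in the model, over all 22404 genes, at a Benjamini-Hochberg adjusted p under 0.05, after the script had been tested on simulated data. Replicates varied by a common biological coefficient of 3.92%. CPM values use the total counts. Exons, lengths and sequences are from GENCODE M21, where the longest protein-coding transcript stands for a gene. Values in every sample are given for collagen genes that passed the test and for the 10 highest in mean CPM. Lists name the passing genes with the largest differences first. P4ha1, P4ha3, Plod2, P3h2, Itga2, Itga10, Itgb1, Ddr1, Ddr2, Pax7, Calcr and Chodl were named after their values were seen. So were Myod1, Myf5, Itga7, Megf10, Fgfr4, Acan, Comp, Matn3, Cdh5 and the fibroblast genes that did not pass or were at or near 0. The members, lists and tests were chosen with earlier results of these data known. Alternatives were DESeq2 1.42.0, a likelihood-ratio test, other scaling and filters, a replicate block, other lengths, and leaving out each sample. Intervals and counts cover no error before sequencing. Summaries were made in Python 3.11.15 with pandas 2.3.3, and plots with matplotlib 3.10.9.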

Additional observations from a re-analysis of the deposited data

How the results depend on the processing

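Over 13 alternative settings, 3 collagen genes fell in each and 21 rose in each except 1: without control replicate 3, 20 rose and Col18a1 was lost. Of 312 fits of the 24 called genes, 311 kept direction and call, and no uncalled collagen gene was called under any of the 13. Among uncalled genes the sign depended on single samples. Leaving out 1 sample at a time, the log2 fold change ranged from -0.0384 to 0.124 for Col4a4, -0.13 to 0.58 for Col6a6, -0.30 to 0.48 for Col9a3, -0.0124 to 0.149 for Col11a2, -0.187 to 0.0467 for Col17a1, -0.189 to 0.0608 for Col23a1 and -0.0109 to 0.297 for Col24a1. These genes had low counts, and depth limits what can be said of them. The number of collagen receptor genes that fell was 1 (Ddr1) with no filter and without cKO replicate 1, in place of 0, and the cause was not tested. Biosynthesis genes that rose numbered 17 to 20 and receptor genes that rose numbered 3 to 5. On TMM-scaled library sizes the difference in summed collagen was 1173 CPM in place of 1248 CPM. Over all genes tested, scaling by total counts gave 2462 that rose and 1057 that fell in place of 2101 and 1448, a share of rises that is larger by over 10 percentage points, while the collagen counts were again 21 and 3. The order of levels per transcript length was added after the data were seen.

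Replicate numbers showed no sign of pairing the samples: deviations from the group means correlated by -0.0129, -0.00449 and -0.0145 across genes for the same-numbered samples. This does not exclude that same-numbered samples were handled together. With the replicate number as a block, 21 collagen genes rose and 3 fell, of 1901 and 1251 over all genes; biosynthesis counts were 18 and 2, and receptor counts 4 and 0.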
